A study of Mus musculus with 4 samples.

Results

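Phosphorylation of the myosin regulatory light chain sets the force of smooth muscle, and 8 genes of this switch were followed in single cells of the mouse ascending aorta. They were chosen by name from 18112 genes common to the libraries: the light chains Myl9 and Myl6, the kinases Mylk and Mylk4, the phosphatase subunits Ppp1cb, Ppp1r12a and Ppp1r12b, and the phosphatase inhibitor Ppp1r14a. All 8 were measured in every library. In smooth muscle cells the level of Mylk4 was 2.15-fold higher and that of Ppp1cb 1.76-fold lower in the library taken after angiotensin II infusion than in the baseline library of the same lineage, whereas between the lineages under angiotensin II no member differed by 1.5-fold in the smooth muscle gate as a whole. Within it Mylk4 did so in the cells without Igfbp2, and outside it Mylk did so in fibroblasts. The call in cells without Igfbp2 and that in fibroblasts were each lost in some alternative settings. Those of Mylk4 and Ppp1cb against baseline in smooth muscle cells held in 13 of 13.

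A rise in calcium activates myosin light chain kinase, which phosphorylates the regulatory light chain, and myosin then cycles on actin. Myosin phosphatase removes the phosphate, so that tension follows the balance of both enzymes. Protein kinase C shifts this balance by inhibiting the phosphatase through CPI-17, the product of Ppp1r14a. In the aorta the pathway is known for vascular tone, and loss-of-function variants of human MYLK for thoracic aortic aneurysm and dissection.

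Cells came from the ascending aorta of male mice of the strain Mef2c-mTmG, in which a reporter tracks lineage, and live single cells were sorted by that lineage into SHF (second heart field) and CNC cells, an abbreviation that the labels do not spell out. The study asked whether the response to angiotensin II (AngII), a peptide that constricts vessels and raises blood pressure, differs between cells of these origins. The groups used here were SHF_Baseline (SHF cells, no infusion), SHF_AngII (SHF cells, 3 days of AngII) and CNC_AngII (CNC cells, 3 days of AngII), with 1 library each; the CNC_Baseline sample was not analysed here. All groups share the strain, the sex and the tissue, and the labels give no age, dose or number of mice. SHF_Baseline held 9412 barcodes and 92474476 UMIs (unique molecular identifiers, each a captured transcript), SHF_AngII 11166 barcodes and 147854476 UMIs, and CNC_AngII 11098 barcodes and 150954701 UMIs. With 1 library per group no difference has a replicate check, no test was made, and each interval is a 95% interval that covers counting error only.

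Smooth muscle cells were taken as cells with at least 5 UMIs of Myh11, the smooth muscle myosin heavy chain, and none of the fibroblast receptor Pdgfra. The gate held 2259 cells of SHF_Baseline, 4649 of SHF_AngII and 6385 of CNC_AngII, with median depths of 12441, 13336 and 13450 UMIs. Fibroblasts were taken as cells with at least 1 Pdgfra UMI and at most 2 Myh11 UMIs, which gave 3939, 2640 and 842 cells, with median depths of 9534, 15485.5 and 12379.5 UMIs. In the smooth muscle gate all 7 smooth muscle markers other than Myh11 were detected, with a summed level of 54516, 62252 and 55871 CPM (UMIs per 1000000 UMIs of the gated cells) in SHF_Baseline, SHF_AngII and CNC_AngII. All 7 fibroblast markers were detected in the fibroblast gate at a summed 32594, 21258 and 18516 CPM. All 7 markers of each set were also detected in the other gate, at lower sums. Fibroblast markers summed to 2651, 3300 and 3394 CPM in the smooth muscle gate. Smooth muscle markers summed to 1301, 4071 and 3967 CPM in the fibroblast gate. The libraries differed in other ways. CNC_AngII held 928 leukocytes, against 8 and 10 in the SHF libraries. Leukocytes were taken as cells with at least 2 UMIs of the leukocyte marker Ptprc, no Pdgfra UMI and at most 2 Myh11 UMIs. The median mitochondrial share of smooth muscle cells was 7.36% in SHF_Baseline, 5.43% in SHF_AngII and 5.16% in CNC_AngII. Between libraries 29 to 34 barcode sequences were shared.

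Of the 8 genes, 10 promoters of RefSeq (build GRCm38.p6) were found, each spanning 250 bases before to 50 bases after the start site. They were searched for the CArG box, the element bound by serum response factor, whose complement is again a CArG box. It occurred in 2 of the 10, in a promoter of Myl9 and a promoter of Myl6, against 1.63% of 32851 mouse promoters of this length. The Myl6 promoter with the box lies inside the gene, downstream of the annotated starts of its coding transcripts (128493824 to 128493875). The other Myl6 promoter, near those starts at chr10:128493837-128494136, held no CArG box. The box of Myl9 begins at position -161 from the start site and that of Myl6 at position -50. The motif TATAAA, searched on both strands, occurred in 0 of 10 against 13.6% of promoters, and CATTCC, the core of sites for TEAD factors, in 3 of 10 (Ppp1r12b, Ppp1cb and Mylk) against 14.7%. In Ppp1r12b only the promoter inside the gene, at chr1:134803793-134804092, held CATTCC. A CArG box can contain TATAAA, and CATTCC can share its last bases with a CArG box. Both light chain promoters with a CArG box are printed because these genes are the most abundant members and were both higher in fibroblasts after AngII, and that of Mylk4 because it differed most between libraries. Capitals mark the CArG box; the sequences run 5′ to 3′ on the gene's strand, at chr2:156775214-156775513 (plus strand) for Myl9, chr10:128492960-128493259 (minus strand) for Myl6 and chr13:32783915-32784214 (minus strand) for Mylk4.
Myl9: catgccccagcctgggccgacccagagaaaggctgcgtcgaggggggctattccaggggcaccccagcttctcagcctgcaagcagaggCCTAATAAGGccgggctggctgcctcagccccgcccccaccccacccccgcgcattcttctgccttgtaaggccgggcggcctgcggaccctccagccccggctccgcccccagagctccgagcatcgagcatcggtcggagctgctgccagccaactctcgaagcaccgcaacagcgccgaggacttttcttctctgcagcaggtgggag
Myl6: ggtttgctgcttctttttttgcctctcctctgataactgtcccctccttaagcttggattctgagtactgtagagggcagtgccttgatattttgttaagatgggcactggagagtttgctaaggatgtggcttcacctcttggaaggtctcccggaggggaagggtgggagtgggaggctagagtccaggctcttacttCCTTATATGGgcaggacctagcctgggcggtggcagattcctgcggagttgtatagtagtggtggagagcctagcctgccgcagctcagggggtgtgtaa
Mylk4: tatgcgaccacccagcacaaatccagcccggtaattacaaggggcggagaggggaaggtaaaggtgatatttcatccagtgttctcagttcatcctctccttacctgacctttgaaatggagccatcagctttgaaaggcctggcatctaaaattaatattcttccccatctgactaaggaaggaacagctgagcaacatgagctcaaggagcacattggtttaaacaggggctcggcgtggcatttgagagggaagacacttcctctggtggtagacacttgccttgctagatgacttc
These matches describe letters in these windows, and binding was not measured.

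In the GENCODE M21 annotation of the same genome, Myl9 (ENSMUSG00000067818) lies on chromosome 2 at 156775420 to 156781658, and Myl6 (ENSMUSG00000090841) on chromosome 10 at 128490860 to 128494145. Mylk (ENSMUSG00000022836) lies on chromosome 16 at 34745210 to 35002420 and Mylk4 (ENSMUSG00000044951) on chromosome 13 at 32700834 to 32783954. The targeting subunits Ppp1r12a (ENSMUSG00000019907) and Ppp1r12b (ENSMUSG00000073557) lie on chromosome 10 at 108162193 to 108284475 and on chromosome 1 at 134754658 to 134955942. Ppp1r14a (ENSMUSG00000037166) lies on chromosome 7 at 29289308 to 29293801 and Ppp1cb (ENSMUSG00000014956) on chromosome 5 at 32458843 to 32517433. Libraries were primed at the 3′ end, so a captured transcript is meant to give 1 UMI whatever its length. A level here is a share of captured 3′ ends. The coding transcripts of Mylk4, Ppp1r12b and Ppp1r14a do not all share a last exon, and what this does to their levels was not tested. The 2 coding transcripts of Mylk, 1 with 32 exons and 1 with 3, end in the same last exon, so that UMIs of the full kinase and of the short form, which encodes telokin, a protein without the kinase domain, cannot be told apart.

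Myl9 encodes the regulatory light chain that the kinase phosphorylates. In smooth muscle cells its level was 4698 CPM in SHF_Baseline, 6364 CPM in SHF_AngII and 5561 CPM in CNC_AngII. The lowest value was that of the baseline library, and the counting intervals of the 3 libraries did not overlap. Such intervals are narrow at these summed UMIs, and in smooth muscle cells they did not overlap for any member. The share of all genes for which this holds was not counted. Thinned to 5000 UMIs per cell, the median cell held 23, 33 and 30 Myl9 UMIs, and the range from the 10th to the 90th percentile was 14 to 34, 19 to 48 and 16 to 45. Cells of the libraries thus overlapped widely. The log2 ratio of SHF_AngII over SHF_Baseline, taken on CPM + 1, was 0.44 (counting interval 0.43 to 0.45), under the 1.5-fold line at 0.58.

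Myl6 encodes the essential light chain of smooth muscle and nonmuscle myosin, which is not the kinase's substrate. It was the most abundant member in each library, at 7865 CPM in SHF_Baseline, 9660 CPM in SHF_AngII and 8536 CPM in CNC_AngII, and ranked 12, 7 and 10 among all genes of the smooth muscle gate. The order of libraries was that of Myl9, with a log2 ratio of 0.30 for SHF_AngII over SHF_Baseline. The number of Myl6 UMIs per 100 Myl9 UMIs was 167, 152 and 154. In fibroblasts, where Myl9 is scarcer, that number was 539, 842 and 861.

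Mylk encodes smooth muscle myosin light chain kinase. Its level in smooth muscle cells was 917 CPM in SHF_Baseline, 622 CPM in SHF_AngII and 693 CPM in CNC_AngII, and at least 1 UMI was present in 99.2%, 98.5% and 99.4% of cells. The baseline library was highest, and the counting intervals of the 3 libraries did not overlap, as for every member. The log2 ratio of SHF_AngII over SHF_Baseline was -0.56 (counting interval -0.58 to -0.54), just short of 1.5-fold. Over the same libraries Myl9 moved the other way, so that Mylk UMIs per 1000 Myl9 UMIs were 195, 97.7 and 125. The Mylk UMIs include any of telokin, so these numbers are not those of the kinase alone.

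Mylk4 encodes a further kinase of the myosin light chain kinase family, described mostly in heart and skeletal muscle. It was the scarcest member in smooth muscle cells at baseline, at 98.5 CPM, and stood at 213 CPM in SHF_AngII and 294 CPM in CNC_AngII, with counting intervals that did not overlap. Its rank among all genes of the gate was 1387, 669 and 489. No other member was higher in each library than in the one before it in this order. At least 1 Mylk4 UMI was found in 56.9%, 76.0% and 88.2% of smooth muscle cells, and in 33.8%, 53.3% and 68.8% of those thinned to 5000 UMIs (45, 60 and 84 shallower cells left out). The log2 ratio of SHF_AngII over SHF_Baseline was 1.10 (1.05 to 1.17), and that of CNC_AngII over SHF_AngII 0.47 (0.44 to 0.50). The mean number of Mylk4 UMIs per smooth muscle cell was 1.29, 3.16 and 4.40.

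**Figure D1:**
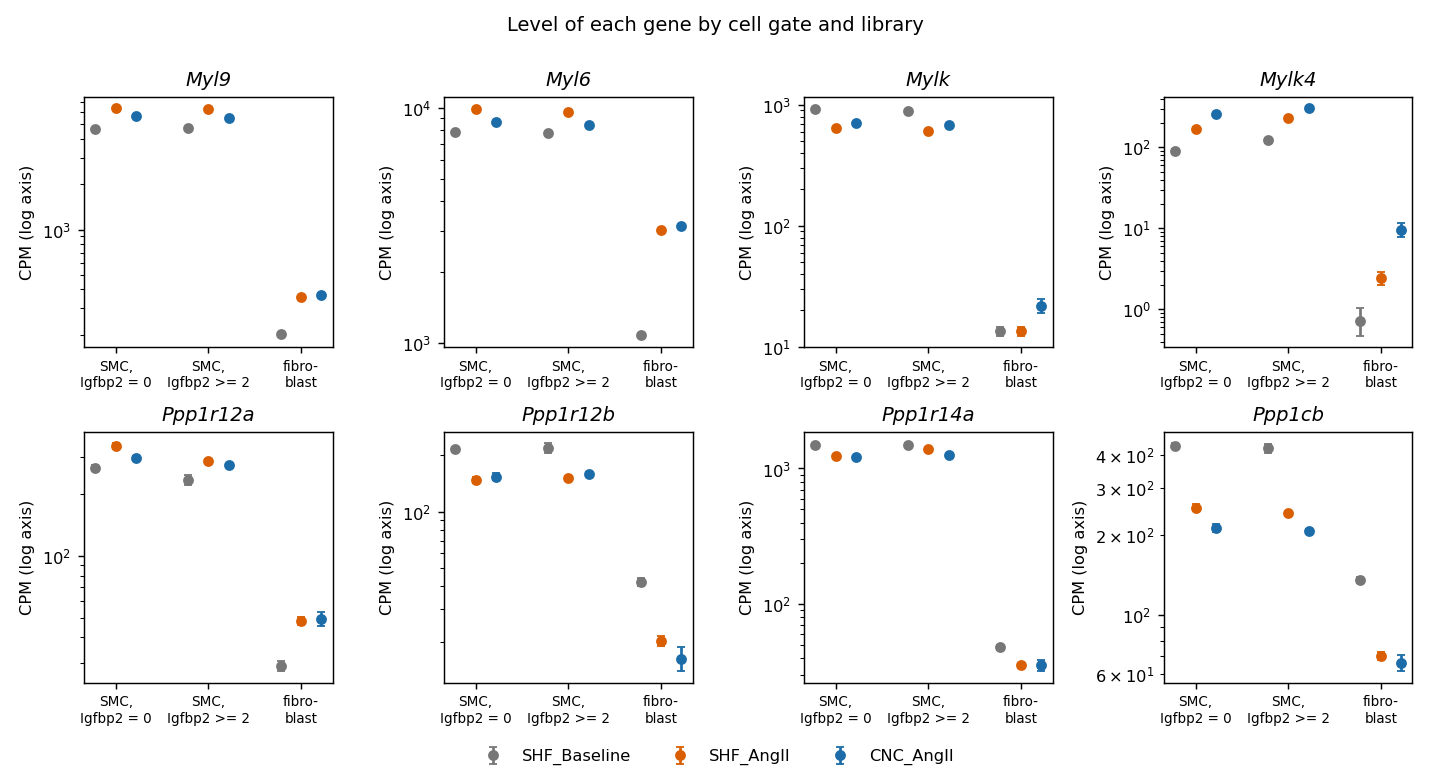
Level of each member (CPM, log axis, scales differ between panels) in smooth muscle cells without Igfbp2, smooth muscle cells with at least 2 Igfbp2 UMIs, and fibroblasts. Points are libraries (grey SHF_Baseline, orange SHF_AngII, blue CNC_AngII) and bars are exact 95% Poisson intervals, often smaller than the point. In smooth muscle cells Mylk4 goes from 98.5 to 213 and 294 CPM, while Ppp1cb goes from 431 to 244 and 209 CPM.

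Ppp1cb encodes the catalytic subunit of myosin phosphatase, which also serves in other phosphatase complexes. In smooth muscle cells it stood at 431 CPM in SHF_Baseline, 244 CPM in SHF_AngII and 209 CPM in CNC_AngII. Both AngII libraries were well below the baseline library, and the counting intervals did not overlap. Ppp1cb had the lowest ratio of the members, with a log2 ratio of -0.81 (-0.85 to -0.78) for SHF_AngII over SHF_Baseline. The median thinned cell held 2 Ppp1cb UMIs at baseline and 1 in each AngII library.

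Ppp1r12a and Ppp1r12b encode MYPT1 and MYPT2, which bring the catalytic subunit to myosin. Ppp1r12a stood at 259, 305 and 281 CPM in smooth muscle cells of SHF_Baseline, SHF_AngII and CNC_AngII. Ppp1r12b stood at 216, 149 and 158 CPM in the same order. The subunits thus differed in opposite directions after AngII, by a log2 ratio of 0.24 (0.20 to 0.27) for Ppp1r12a and -0.53 (-0.58 to -0.49) for Ppp1r12b, neither past 1.5-fold. Ppp1r12b made up 45.4% of the UMIs of both in SHF_Baseline, 32.8% in SHF_AngII and 36.1% in CNC_AngII. In fibroblasts the Ppp1r12b share was 59.2%, 29.7% and 24.8%. The number of Mylk UMIs per 100 UMIs of both targeting subunits in smooth muscle cells was 193, 137 and 158.

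Ppp1r14a encodes CPI-17, which inhibits myosin phosphatase once protein kinase C has phosphorylated it. Its level in smooth muscle cells was 1495 CPM in SHF_Baseline, 1341 CPM in SHF_AngII and 1242 CPM in CNC_AngII. The spread over libraries was the narrowest of the members that were lower after AngII. The log2 ratio of SHF_AngII over SHF_Baseline was -0.16 (-0.17 to -0.14), and its sign turned in 4 of 13 alternative settings, to as much as 0.26 under the stricter cell filter. That filter left 120 smooth muscle cells of SHF_Baseline. They are nearly all of the 122 with at most 5% mitochondrial UMIs, which is another of the 4 settings. Set against the catalytic subunit, Ppp1r14a had 347, 549 and 595 UMIs per 100 Ppp1cb UMIs.

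SHF_AngII against SHF_Baseline gave 1 gene past 1.5-fold on the higher side (Mylk4) and 1 on the lower side (Ppp1cb) among 8 in smooth muscle cells. Of 7006 genes with a mean of at least 10 CPM, 24.3% were past 1.5-fold, 8.86% higher and 15.4% lower, so a count of 2 in 8 is near the background. With the line drawn at a difference of 25% in place of 1.5-fold, 5 members and 50.4% of genes were past it. The median log2 ratio was 0.04 over the members and -0.10 over all genes. Scaling by TMM, which assumes that most genes do not differ, moved every smooth muscle ratio of this comparison up by 0.17; Mylk then stood at -0.39 and Myl9 at 0.61. The baseline table names 518 of the common genes by other symbols than both AngII tables do, and gene annotation, library preparation and condition cannot be told apart in this comparison.

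**Figure D2:**
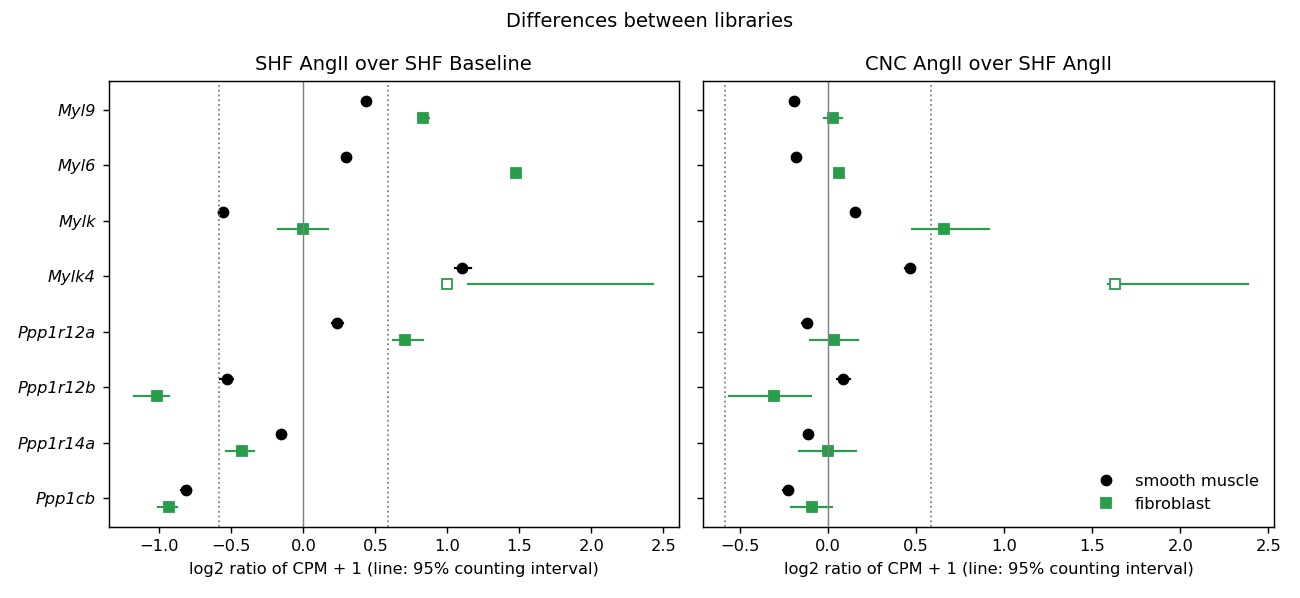
Log2 ratio (CPM + 1) of each member for SHF_AngII over SHF_Baseline (left) and CNC_AngII over SHF_AngII (right) in smooth muscle cells (black circles) and fibroblasts (green squares). Lines are 95% counting intervals taken without a pseudocount, which for Mylk4 in fibroblasts (open squares, mean below 10 CPM) leaves the point outside or at the edge of its line; dotted lines mark 1.5-fold. Mylk4 and Ppp1cb in smooth muscle lie outside the dotted lines on the left, and no smooth muscle point does on the right.

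Smooth muscle cells were also ordered by mitochondrial share, since 94.6% of those of SHF_Baseline, 65.7% of SHF_AngII and 56.1% of CNC_AngII exceeded 5% mitochondrial UMIs. This split was chosen after the values were seen. Within each library Mylk was lower in cells with less mitochondrial RNA: in cells with at most 5%, 5 to 7.5% and 7.5 to 10%, its level was 697, 880 and 980 CPM in SHF_Baseline, 540, 671 and 774 CPM in SHF_AngII, and 601, 793 and 889 CPM in CNC_AngII. Mylk was not alone in this: Myl6, Ppp1r12a, Ppp1r12b and Ppp1cb also rose from range to range in every library. For Ppp1cb the SHF_Baseline levels were 372, 424 and 443 CPM. Myl9, Ppp1r14a and Mylk4 rose at each step in SHF_Baseline but not in SHF_AngII. At matched shares, the log2 ratio of Mylk for SHF_AngII over SHF_Baseline was -0.37, -0.39 and -0.34, smaller than the -0.56 of all cells. For Ppp1cb the ratio was -0.78, -0.69 and -0.62, against -0.81 in all cells. Mylk4 differed by 1.98 in the cells with the lowest share, of which SHF_Baseline had 122, and by 1.19 and 0.81 in the others. For Ppp1r14a the ratio was 0.26, 0.02 and -0.19, and so had no single direction. In CNC_AngII against SHF_AngII the Mylk4 ratio was 0.38, 0.55 and 0.69. The part of mitochondrial share in any of these differences was not tested.

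**Figure D3:**
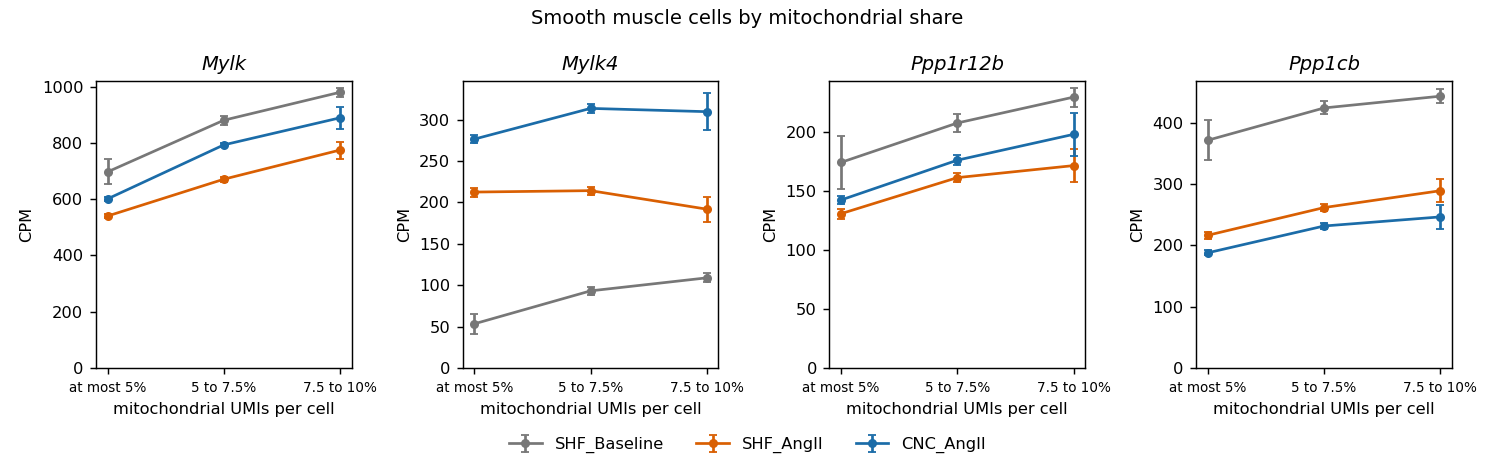
Level (CPM) of Mylk, Mylk4, Ppp1r12b and Ppp1cb in smooth muscle cells of each library, by the share of mitochondrial UMIs per cell. Points are summed over the cells of a range and bars are approximate 95% counting intervals. Mylk, Ppp1r12b and Ppp1cb are higher with a higher share in all 3 libraries, Mylk from 697 to 980 CPM at baseline. The Mylk levels of the libraries stay apart within each range.

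Between lineages under AngII, which share their gene list, 0 of 8 members were past 1.5-fold in smooth muscle cells, where 1.98% of 6773 genes were; at a difference of 25% it was 1 member (Mylk4) and 6.3% of genes. The largest ratio was the 0.47 of Mylk4. Mylk was slightly higher in CNC_AngII, at 0.16 (0.14 to 0.17), as was Ppp1r12b, at 0.09 (0.05 to 0.12). Ppp1cb was lower, at -0.23 (-0.26 to -0.20), and so were Myl9 at -0.19, Myl6 at -0.18, Ppp1r12a at -0.12 and Ppp1r14a at -0.11. The median was -0.11 over the members and 0.00 over all genes. Smooth muscle cells of CNC_AngII also carried more leukocyte RNA: all 6 leukocyte markers were detected, at a summed 220 CPM, against 2.41 CPM in SHF_Baseline, with Adgre1, C1qa and Fcgr1 at 0, and 1.18 CPM in SHF_AngII, with Ptprc, Adgre1 and Fcgr1 at 0. Its part in the results was not tested.

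The smooth muscle gate was split by Igfbp2, a secreted binding protein of insulin-like growth factors. Cells with at least 2 Igfbp2 UMIs were 15.8% of the gate in SHF_Baseline (358 cells), 58.0% in SHF_AngII (2695) and 72.5% in CNC_AngII (4630), and cells with none numbered 1723, 1513 and 1211. Igfbp2-positive cells were deeper, with medians of 15084.5, 14955 and 14308 UMIs against 11965, 10419 and 10674. Since the split reads UMIs per cell, depth moves with it, and its part in the results was not tested. In no library was a member past 1.5-fold between these cells, where 1.81%, 2.67% and 1.21% of genes were. At a difference of 25%, Mylk4 alone was past it in SHF_Baseline, with 9.66% of genes, and in SHF_AngII, with 9.92%.

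Mylk4 and Ppp1r12a differed most across the Igfbp2 split, in opposite directions. Mylk4 stood at 123 CPM in positive and 91.1 CPM in negative cells of SHF_Baseline, at 232 and 167 CPM in SHF_AngII, and at 302 and 255 CPM in CNC_AngII. Positive cells were higher in each library, with log2 ratios of 0.43 (0.30 to 0.56), 0.47 (0.41 to 0.53) and 0.24 (0.19 to 0.29). Ppp1r12a stood at 233 CPM in positive and 268 CPM in negative cells of SHF_Baseline, at 289 and 342 CPM in SHF_AngII, and at 276 and 297 CPM in CNC_AngII. Here positive cells were lower in each library, with log2 ratios of -0.20, -0.24 and -0.11. Under the stricter cell filter the Ppp1r12a ratios were 0.07, -0.09 and -0.03, with 13 positive cells left in SHF_Baseline. After thinning to 5000 UMIs per cell the Mylk4 ratio was 0.33 in SHF_Baseline and 0.56 in SHF_AngII. Ppp1r14a was 0.16 higher in positive cells of SHF_AngII and within 0.05 of zero elsewhere.

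**Figure D4:**
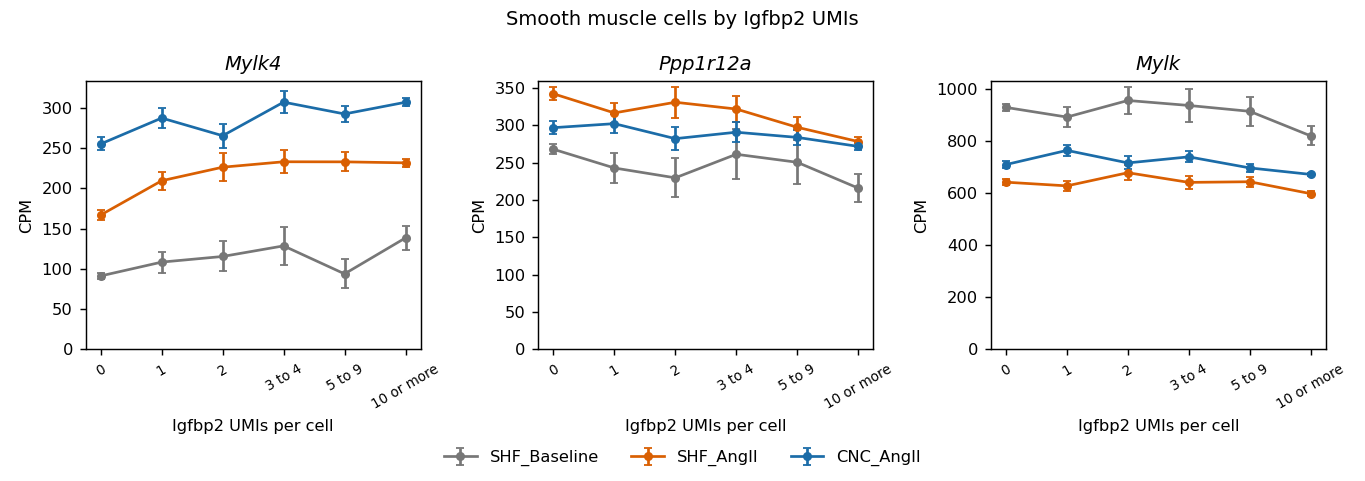
Level (CPM) of Mylk4, Ppp1r12a and Mylk in smooth muscle cells by the number of Igfbp2 UMIs per cell, for each library. Points are summed over the cells of a range and bars are approximate 95% counting intervals. Mylk4 goes from 167 CPM in cells without Igfbp2 to 232 CPM in cells with 10 or more in SHF_AngII, and for Mylk4 the libraries stay apart in every range.

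Within Igfbp2-negative cells Mylk4 was 0.87 (0.79 to 0.96) higher in SHF_AngII than in SHF_Baseline on the log2 scale, and within positive cells 0.91 (0.80 to 1.03). Both are below the 1.10 of the whole gate, in which the share of positive cells also differed. Ppp1cb was lower by a like amount in both, at -0.77 and -0.81, and Mylk stood at -0.53 in both. Past 1.5-fold were again 1 member higher and 1 lower in each, where 20.1% of genes were in negative cells (7.87% higher and 12.2% lower) and 25% in positive cells (8.7% higher and 16.3% lower). Between the lineages Mylk4 passed 1.5-fold in negative cells, at 0.61 (0.54 to 0.68), where 3.99% of genes did (1.76% higher), and not in positive cells, at 0.38 (0.35 to 0.42), where 1.39% did. The call in negative cells held in 8 of 10 alternative settings and was lost at 0.42 under the stricter cell filter. The difference between both ratios was not tested.

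All 8 members were more than 1.5-fold higher in the smooth muscle gate than in the fibroblast gate of the same library, where 36.6%, 37.8% and 36.6% of genes were past 1.5-fold and 12%, 15.2% and 14.8% on the higher side. The gates were cut on Myh11 itself, so these ratios describe the gates. Mylk had log2 ratios of 5.99, 5.43 and 4.93 in SHF_Baseline, SHF_AngII and CNC_AngII, and Ppp1r14a 4.93, 5.20 and 5.09. The catalytic subunit Ppp1cb, used by many cells, had the lowest ratio at baseline, 1.67, and 1.79 and 1.65 after AngII. Myl6 had ratios of 2.86, 1.68 and 1.44. The fibroblast level of Myl6 was 1085 CPM in SHF_Baseline, 3019 CPM in SHF_AngII and 3152 CPM in CNC_AngII.

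In fibroblasts, SHF_AngII against SHF_Baseline put 3 of the 7 members above 10 CPM past 1.5-fold on the higher side and 2 on the lower side, where 38.1% of 7706 genes were past it, 10.7% higher and 27.4% lower. Of the members with a mean of at least 50 CPM, 3 were past it, as were 35.1% of such genes. Myl6 was higher by a log2 ratio of 1.48 (1.46 to 1.49), Myl9 by 0.83 (201 to 359 CPM) and Ppp1r12a by 0.71 (29.1 to 48.0 CPM). Ppp1r12b was lower by a log2 ratio of -1.02 (42.2 to 20.3 CPM) and Ppp1cb of -0.93 (135 to 70.2 CPM). Ppp1r14a stood at -0.43, short of 1.5-fold, and Mylk at -0.00, with 13.4 CPM in both libraries. Ppp1cb is the one member that was past 1.5-fold here and in smooth muscle, lower in both; the light chains, Ppp1r12a and Ppp1r12b were past it in fibroblasts and short of it in smooth muscle, and the difference between the cell types was not tested. TMM moved these ratios up by 0.27 and left 5 members past 1.5-fold. Depth and part of the smooth muscle markers moved with Myl9 here. In the fibroblast gate these markers summed to 1301 CPM in SHF_Baseline and 4071 CPM in SHF_AngII, nearly all of it Acta2, at 585 and 1997 CPM, and Tagln, at 607 and 1975 CPM. Cnn1 was also higher, at 6.76 and 15.6 CPM, but 4 of the 7 markers were not: Smtn stood at 43.3 and 42.1 CPM, Lmod1 at 44.0 and 35.3 CPM, Synpo2 at 13.6 and 4.83 CPM and Myocd at 1.82 and 0.72 CPM. Their part in the result was not tested; in fibroblasts without any Myh11 UMI, Myl9 stood at 0.86 and Myl6 at 1.51.

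Between CNC_AngII and SHF_AngII fibroblasts only Mylk was past 1.5-fold among the 7 members above 10 CPM, where 2.3% of 7231 genes were, 1.22% on the higher side. With a mean of at least 50 CPM 0 members and 2.15% of genes were. Mylk stood at 21.8 CPM in CNC_AngII and 13.4 CPM in SHF_AngII, a log2 ratio of 0.66 (0.48 to 0.91). The call was lost in fibroblasts without any Myh11 UMI, after thinning and with a pseudocount of 10 CPM. At least 1 Mylk UMI was found in 18.4% of the fibroblasts of CNC_AngII (exact binomial interval 15.8 to 21.2%) and in 17.5% of its leukocytes (15.1 to 20.1%). Median depths were 12379.5 and 11805 UMIs, and whether leukocytes make Mylk themselves was not tested. After thinning these shares were 9.11% and 8.86%, so by detection the cell types were not told apart. The Mylk level of the leukocytes was 15.8 CPM (13.6 to 18.2), below the 21.8 CPM (19.1 to 24.6) of the fibroblasts, with counting intervals that did not overlap. How much of the fibroblast Mylk is free RNA was not tested. Mylk4 was below 10 CPM in fibroblasts, at 0.71, 2.42 and 9.56 CPM in SHF_Baseline, SHF_AngII and CNC_AngII. In CNC_AngII a Mylk4 UMI was found in 3.78% of thinned fibroblasts (2.54 to 5.38%) and 1.88% of thinned leukocytes (1.10 to 3.00%). Myl9 was found in 60.5% of thinned fibroblasts and 18.6% of thinned leukocytes, Ppp1r14a in 13.5% and 3.54%, and Ppp1r12b in 8.59% and 1.99%. Unthinned, Myl9 was found in 78.7% and 37.7%, Ppp1r14a in 29.7% and 9.48%, and Ppp1r12b in 19.2% and 6.79%. The members that many cells use were as common in leukocytes or nearly so: thinned, Ppp1cb was found in 25.8% of fibroblasts and 21.9% of leukocytes and Myl6 in 99.7% and 99.8%. Ppp1r12a, unthinned, was found in 43.2% and 49.2%. Myl6 had a higher level in fibroblasts all the same, at 3152 against 1568 CPM, whereas Ppp1r12a had a lower one, at 49.2 against 60.5 CPM.

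Cell-to-cell variation was read in smooth muscle cells thinned to 5000 UMIs. The Fano factor (variance over mean, 1 for counting alone) was 2.69, 4.08 and 4.25 for Myl9 and 3.14, 4.09 and 4.43 for Myl6, and between 1.07 and 1.16 for Ppp1r12b and Ppp1cb. It grows with the mean for the same relative spread, and the light chains are the most abundant members. Relative to the squared mean, the variance beyond counting was highest for Mylk4, at 0.74, 0.63 and 0.36, while that of Myl9 was 0.072, 0.092 and 0.11 and that of Myl6 0.054, 0.060 and 0.074. Ppp1r14a, abundant as well, stood at 0.19, 0.19 and 0.21 on this scale. Over cells the light chains went together, with a Pearson correlation of 0.46 in SHF_Baseline (2214 cells), 0.56 in SHF_AngII (4589 cells) and 0.61 in CNC_AngII (6301 cells). Ppp1r14a correlated with Myl6 at 0.27, 0.38 and 0.48 and with Myl9 at 0.26, 0.30 and 0.42. Mylk correlated with Myl9 at 0.14, 0.14 and 0.24. These cells share a library, and the values are descriptions.

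Genes whose level over the 9 combinations of library and gate (positive, negative and fibroblast) was most like a member were sought among 7398 genes, and over 9 points that mostly contrast smooth muscle with fibroblasts many genes come close to 1. The genes most like Mylk were Smtn (smoothelin), Mrvi1 and Pgm5, each with a Pearson correlation of 0.999 on log2(CPM + 1). For Mylk4 they were Cspg4 (the NG2 proteoglycan, 0.998), Cox7a2 (0.996) and Lama5 (a laminin chain, 0.995). Ppp1r14a was most like Asb2, Ccdc107 and Ttll7, Myl9 most like Myom1, Pdlim7 and Neurl2, and Myl6 most like Tstd3, Sdr39u1 and Ptges3l. Ppp1r12a was most like Plekho1, Myl9 and Neurl2, Ppp1r12b most like Sort1, Dmd (dystrophin) and Peli2, and Ppp1cb most like Cavin1, Pfkp and Kank1.

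The wider pathway was read from a list of 45 further genes (among them nonmuscle myosins, small GTPases and their regulators, other kinases and phosphatase subunits, protein kinases C and G, and AngII receptors with their G proteins), of which 44 were measured. In smooth muscle cells of SHF_AngII against SHF_Baseline, 5 of the 34 above 10 CPM were past 1.5-fold higher and 5 lower, beside 8.86% and 15.4% of all genes, which is near the background. The median log2 ratio was -0.04 against -0.10 over all genes. Ppp1r14b, a relative of the inhibitor Ppp1r14a, went from 116 to 279 CPM (1.26) and Arhgdia, a GDP dissociation inhibitor of small GTPases, from 184 to 319 CPM (0.79). Gnaq, a G protein among those through which AngII receptors signal, went from 61.5 to 30.6 CPM (-0.98) and Rhob from 352 to 200 CPM (-0.81). In fibroblasts 2 of 34 were higher and 11 lower, beside 10.7% and 27.4% of all genes, with a median of -0.30 against -0.21. Dapk1 stood at -1.34 and Rhob at -1.38, and Arhgef2 went from 51.7 to 25.3 CPM. Between CNC_AngII and SHF_AngII 0 of 34 were past 1.5-fold in smooth muscle cells and 0 of 33 in fibroblasts, where 1.98% and 2.3% of all genes were. Of the receptors themselves, Agtr1a was at 2.34 CPM in SHF_Baseline and 1.40 CPM in SHF_AngII smooth muscle cells, below the level at which ratios were read.

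Against fibroblasts the pathway genes went in both directions. In SHF_Baseline 7 of 35 were higher and 7 lower in smooth muscle, beside 12% and 24.6% of all genes. In SHF_AngII 9 and 7 of 34 were, beside 15.2% and 22.7%, and in CNC_AngII 9 and 5 of 34, beside 14.8% and 21.8%. The kinase of the phosphatase, Rock1, was 2.12, 2.38 and 2.36 higher on the log2 scale, and the cGMP-dependent kinase Prkg1 2.02, 1.89 and 1.97 higher. The kinase Dapk1 stood at -2.58, -2.87 and -3.06, and the nonmuscle light chain Myl12b at -2.02, -2.43 and -2.69. Myl12b overlaps its neighbour Myl12a on the same strand in M21, so its value is uncertain.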

How the data were processed

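The authors deposited raw UMI counts per gene and cell barcode for each library, made with a 10x 3′ v3 kit per the labels' protocols, with no normalisation. The submitters' processing notes name STAR 2.5, HTSeq 0.6.1, fastp and mm10, with no role for each. The genes common to the 3 tables numbered 18112, of which 518 were matched through a synonym; 13 repeated names were left out. A cell was kept with 500 or more genes and no more than 10% of its UMIs mitochondrial (8374, 9299 and 10194 in SHF_Baseline, SHF_AngII and CNC_AngII), without 205, 191 and 277 doublets marked by Scrublet (scanpy 1.11.5). UMIs were summed over gated cells and scaled to CPM, and ratios are log2((CPM + 1)/(CPM + 1)), called past 1.5-fold among genes with a mean of at least 10 CPM. Ratio intervals are conditional binomial, levels exact Poisson and shares exact Clopper-Pearson, at 95%, for counting error only. UMIs are molecules, yet cells of 1 library are no replicates, so there is no p-value. The scripts were tested on simulated data.

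The members, gates and lists were chosen with earlier results of these data known. Named are all members, up to 4 pathway genes past 1.5-fold per comparison with the largest ratio, the most similar 3 genes of each member, and Agtr1a, the smooth muscle markers, and Ptprc, Adgre1, C1qa and Fcgr1 as a receptor and cell type markers. The value of 1 pathway gene that this rule names is not reported here. Markers of endothelial, cardiac, pericyte, Schwann and mesothelial cells each summed to at most 272 CPM in either gate. Alternatives were the cell filter, doublets, the gates, thinning, the scaling (TMM, edgeR 4.0.16), the pseudocount and the thresholds. Promoters and gene positions are those of RefSeq GRCm38.p6 and GENCODE M21.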

Additional observations from a re-analysis of the deposited data

Results flagged for a closer look

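For 2 members the ratio of CNC_AngII over SHF_AngII lay on opposite sides of zero in smooth muscle cells and fibroblasts, with counting intervals that exclude zero in each. The share of all genes that did so was not counted, so this number is not read as a result about the members. Myl6, the essential light chain, had a log2 ratio of -0.18 in smooth muscle cells and 0.062 in fibroblasts. Ppp1r12b, the targeting subunit MYPT2, had a log2 ratio of 0.088 in smooth muscle cells and -0.31 in fibroblasts, where it rested on 185 and 908 UMIs. With 1 library per group the difference between the cell types was not tested for either gene.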

How the results depend on the processing

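No paired analysis was possible because each group had 1 library and no result came from a test. Ratios within ranges of mitochondrial share were added after the data were seen. Of 1192 alternative values of 112 member ratios, 730 stayed in the counting interval, 462 left it and 0 called ratios reversed. In SHF_AngII over SHF_Baseline smooth muscle cells, Mylk4 (0.81 to 1.98) and Ppp1cb (-0.85 to -0.62) stayed past 1.5-fold in 13 of 13 alternatives, Myl9 (0.40 to 0.61) passed it in 4 and Mylk (-0.60 to -0.34) in 1. The count of members past the fold was thus 3 in place of 2 in 5 settings, and 5 at a difference of 25%. In fibroblasts it was 3 in place of 5 with a mean of at least 50 CPM, which tests fewer genes, 4 with a pseudocount of 10 CPM, where Ppp1r12a fell to 0.57, and 6 at a difference of 25%. In Igfbp2-negative cells Mylk4 between the AngII lineages (0.42 to 0.76) stayed past it in 8 of 10. Between the AngII lineages it was 1 in place of 0 in smooth muscle cells with 7.5 to 10% mitochondrial UMIs and at a difference of 25%, and in fibroblasts 0 in place of 1 with a gate of no Myh11, after thinning, with a pseudocount of 10 CPM and with a mean of at least 50 CPM. Between Igfbp2-positive and Igfbp2-negative cells it was 1 in place of 0 at a difference of 25% in SHF_Baseline and SHF_AngII, and 1 under the stricter cell filter in SHF_Baseline, where 13 positive cells remained and Mylk4 stood at 1.75. The causes of the other moves were not tested. TMM moved the ratios of smooth muscle over fibroblasts up by 0.25, 0.21 and 0.23 and turned none. Depth limits Mylk and Mylk4 in fibroblasts, where 27 Mylk4 UMIs were counted at baseline.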
